A study of Homo sapiens with 6 samples.

Results

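The zinc finger genes of chromosome 19 were taken as the protein-coding RefSeq genes of GRCh38 on that chromosome whose symbol is ZNF followed by a number. They numbered 246 of 20037 protein-coding genes, 83 on the short arm (19p) and 163 on the long arm (19q). The arms were divided at the widest stretch of the chromosome without a peak, which spans 3.63 Mb between positions 24140439 and 27774956. Chromatin accessibility was measured by ATAC-seq, in which the Tn5 transposase inserts sequencing adapters where DNA is exposed, in RKO cells, a colon cancer line. All samples were grown in the same medium at low oxygen, 3 were treated with 0.2 µM aphidicolin (APH), an inhibitor of the replicative DNA polymerases, for 16 h, and 3 received DMSO. The design compares the 2 conditions to ask whether low replication stress changes accessibility, and the study describes 3 independent experiments in this 1 cell line. Genes were described by the peaks with their midpoint in the gene or within 1 kb of it. A peak within 1 kb of the 5′ end of the gene was called a start peak, and any other peak of the gene a body peak.

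Most genes named ZNF and a number encode DNA-binding proteins with tandem C2H2 zinc fingers, and many carry a KRAB domain, which recruits the corepressor TRIM28 and the machinery of histone H3 lysine 9 methylation. Many of these proteins bind and repress transposable elements. The genes multiplied by tandem duplication and lie in clusters on chromosome 19, where neighbours are often close copies, and the zinc finger exons of many are themselves covered by H3 lysine 9 methylation while their promoters stay free of it.

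The promoters of 7 members are shown first because they carry the contrasts described further on. Each run holds 280 bases, the 250 before the RefSeq start and the first 30 after it, from RefSeq on GRCh38.p14. ZNF91, ZNF208 and ZNF492 belong to 1 cluster on 19p, with other members between them, ZNF91 with a start peak in all 6 samples and the other two with no peak anywhere in any sample. Capitals mark TCCAATCAGG, a word that contains a CCAAT box, and TCTTCTGTCACTCA, the shared words chosen for 19p promoters.
ZNF91 promoter, open, chr19:23395442-23395721, minus strand: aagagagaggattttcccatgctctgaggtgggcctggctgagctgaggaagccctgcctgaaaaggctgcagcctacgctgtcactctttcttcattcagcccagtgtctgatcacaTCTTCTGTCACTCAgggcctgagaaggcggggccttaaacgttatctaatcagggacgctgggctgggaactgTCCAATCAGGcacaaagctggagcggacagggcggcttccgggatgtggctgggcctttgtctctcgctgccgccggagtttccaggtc
ZNF208 promoter, fully closed, chr19:22010914-22011193, minus strand: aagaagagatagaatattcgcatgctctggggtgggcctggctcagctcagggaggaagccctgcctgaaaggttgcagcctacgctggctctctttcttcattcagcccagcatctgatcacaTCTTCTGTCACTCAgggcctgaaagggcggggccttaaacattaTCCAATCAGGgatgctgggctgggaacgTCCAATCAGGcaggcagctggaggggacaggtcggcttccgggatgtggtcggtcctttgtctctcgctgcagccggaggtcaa
ZNF492 promoter, fully closed, chr19:22634074-22634353, plus strand: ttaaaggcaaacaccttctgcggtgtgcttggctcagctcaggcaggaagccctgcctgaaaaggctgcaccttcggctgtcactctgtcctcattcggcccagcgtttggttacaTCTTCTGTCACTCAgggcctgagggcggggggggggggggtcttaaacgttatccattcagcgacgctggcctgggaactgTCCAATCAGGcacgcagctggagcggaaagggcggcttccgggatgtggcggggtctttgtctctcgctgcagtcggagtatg
The ZNF91 and ZNF208 runs were identical at 247 of 287 columns of a global alignment (86.1%), and ZNF91 and ZNF492 at 231 of 293 (78.8%). An open and a fully closed promoter of this cluster thus shared most of their bases, and both words stood in all 3 runs. ZNF587 and ZNF530 lie in the last cluster of 19q. Capitals mark AACTACATTACCCA, the shared word chosen for 19q promoters, which stood in 11 of 143 of them. Its first 10 bases were searched as a word of their own.
ZNF587 promoter, open, chr19:57849609-57849888, plus strand: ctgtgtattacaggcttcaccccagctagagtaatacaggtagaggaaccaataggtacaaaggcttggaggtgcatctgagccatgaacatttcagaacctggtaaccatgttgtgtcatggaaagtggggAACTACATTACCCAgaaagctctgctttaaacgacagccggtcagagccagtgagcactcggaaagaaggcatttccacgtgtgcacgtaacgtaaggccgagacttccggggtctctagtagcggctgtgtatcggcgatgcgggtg
ZNF530 promoter, fully closed, chr19:57599635-57599914, plus strand: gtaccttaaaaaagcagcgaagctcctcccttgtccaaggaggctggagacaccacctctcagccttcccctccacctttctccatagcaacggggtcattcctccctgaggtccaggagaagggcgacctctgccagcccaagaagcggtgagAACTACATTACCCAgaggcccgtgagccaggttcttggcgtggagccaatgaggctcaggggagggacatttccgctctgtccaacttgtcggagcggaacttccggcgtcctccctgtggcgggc
These 2 runs were identical at 150 of 301 columns (49.8%), against 150 of 298 (50.3%) for ZNF91 and ZNF587 from different arms. ZNF554 and ZNF766 are the members whose start value was called lower in APH. Capitals mark the CCAAT box (CCAAT), the GC box (GGGCGG) and the ETS motif (CCGGAAG) on either strand.
ZNF554 promoter, open, chr19:2819618-2819897, plus strand: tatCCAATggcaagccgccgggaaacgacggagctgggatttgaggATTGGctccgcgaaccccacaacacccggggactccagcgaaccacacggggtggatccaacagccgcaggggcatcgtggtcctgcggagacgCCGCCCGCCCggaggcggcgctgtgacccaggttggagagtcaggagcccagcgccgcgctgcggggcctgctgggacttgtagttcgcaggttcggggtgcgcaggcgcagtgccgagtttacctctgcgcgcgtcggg
ZNF766 promoter, open, chr19:52269337-52269616, plus strand: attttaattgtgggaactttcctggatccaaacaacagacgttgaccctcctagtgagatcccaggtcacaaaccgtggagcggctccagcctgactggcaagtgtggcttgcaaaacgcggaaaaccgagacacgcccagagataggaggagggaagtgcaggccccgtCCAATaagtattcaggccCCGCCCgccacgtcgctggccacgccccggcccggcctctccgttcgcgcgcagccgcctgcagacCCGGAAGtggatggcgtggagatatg
ZNF554 held 2 matches each to the CCAAT box and the GC box and none to the ETS motif, and ZNF766 held 1 match to each of the 3.

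Each sample had between 64511 and 84510 peaks in all, of which 332 to 406 belonged to members, and the lowest peak value of any sample lay between 15.1 and 15.5. The peak value averages read coverage, counted in 32-nt bins, across the peak and is called signal here. Value times bins came within 0.01 to 0.017, by the number of bins, of a whole number in at least 99.995% of the peaks below 1000 bp and 1000 signal, so the value was taken as not multiplied by a factor for library size. Reads sampled down to an equal number would also leave whole numbers, so this check cannot show whether depth was made equal. Library depth is unknown. Any difference in depth that remains between samples passes into the values, and no counting interval can be given. Only uniquely mapped pairs were kept by the authors, so near-identical copies may lose reads, and how much each member lost was not tested. As a check of the labelled line, the epithelial genes EPCAM and KRT8 had a start peak in 6 of 6 samples and KRT18 in 5, while CDH1, the blood genes PTPRC and CD3E and the liver gene ALB had none. CDX2 and LMNA, listed as silenced in RKO, had a start peak in all 6.

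Member starts were open or closed in nearly the same way in all samples. A start peak was found in all 6 samples in 161 of 246 members (65.4%), in 1 to 5 samples in 5 (2.03%) and in no sample in 80 (32.5%). Among other protein-coding genes of chromosome 19 these shares were 51.2%, 8.18% and 40.6%, and among the 264 genes named ZNF and a number on other chromosomes 74.6%, 3.03% and 22.3%. Members with a start peak made up 66.1% ± 0.492 (SD, n = 6 samples), 10.8 ± 0.853 points above other genes of chromosome 19 and 10.0 ± 0.598 points below ZNF genes of other chromosomes. Both differences had the same sign in 6 of 6 samples (exact sign-flip permutation test over samples, two-sided, p = 0.03125, the smallest 6 samples allow). The samples measured the same genes, so these p-values speak of the spread between samples and not between genes.

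The 5 members between open and closed had values of at most 31.2, with 1 exception. ZNF626 had a start peak only in APH replicate 3 (20.9) and ZNF813 only in APH replicate 2 (21.8). ZNF730 had peaks of 19.9 in DMSO replicate 1 and 21.5 in APH replicate 1. ZNF586 had peaks of 20.3 in DMSO replicate 2 and of 31.2 and 19.9 in APH replicates 2 and 3. ZNF114 stood apart, with no start peak in any DMSO sample and values of 50.7, 61.1 and 55.3 in the 3 APH samples, all from 1 region at chr19:48269745-48270003. Since the gene entered no fit that requires a peak in all samples, its change was not tested.

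The 80 members with no start peak were of 2 kinds. In 27, no sample had any peak in the gene or within 1 kb of it. The other 53 had peaks elsewhere in the gene, and in 20 of these another RefSeq start of the same gene was open in all 6 samples, with mean values from 69.1 (ZNF331) to 439.9 (ZNF574) and a median of 178. Some of these peaks cannot be assigned to the member. The values of ZNF565 and ZNF540 are those at the starts of ZNF146 and ZNF571. All body peaks of ZNF302 lay within 1 kb of the start of another gene. With every RefSeq start counted, 181 members were open in all 6 samples, 64 on 19p and 117 on 19q, where a peak shared by several genes counted for each. Of the 23 members whose start lay within 1 kb of the start of another protein-coding gene, 17 were open. For these the peak cannot be assigned to either gene.

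**Figure D1:**
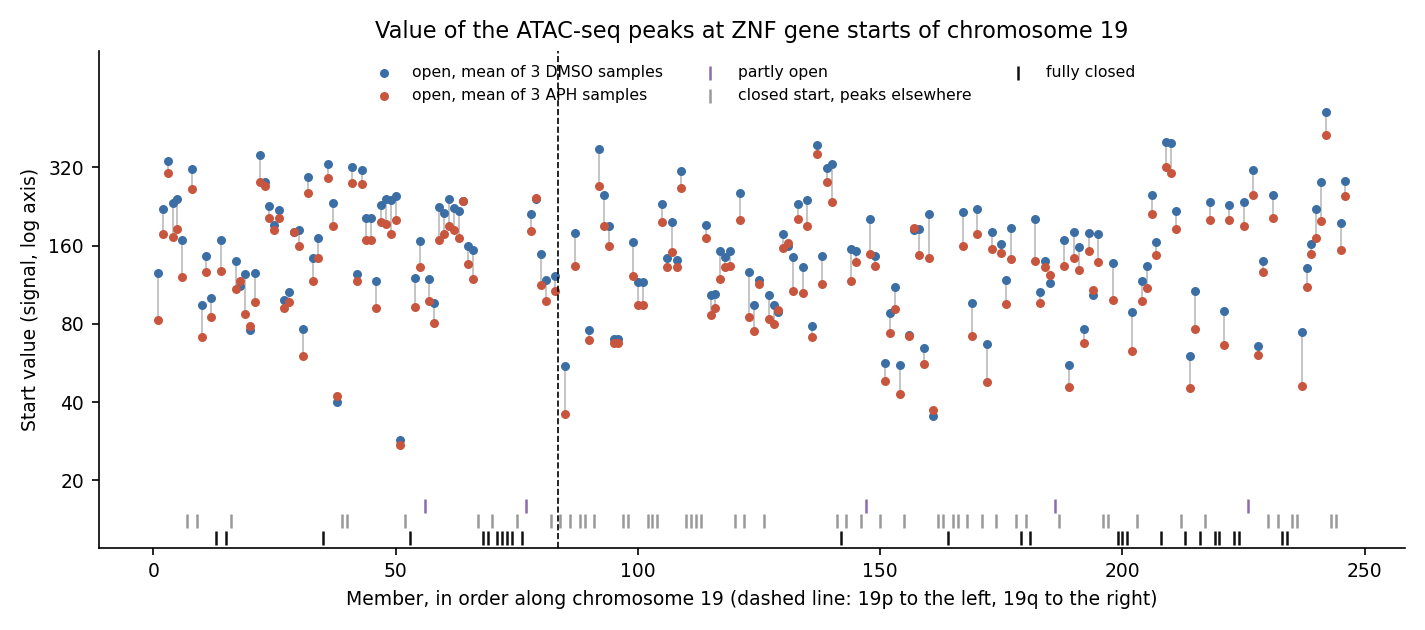
Mean start value (signal, log axis) of the 161 open members in DMSO and APH, n = 3 samples each, in their order along chromosome 19, with the 85 other members as marks below, which carry no value. Values run from 27.9 to 474 as means over the 6 samples, most APH points lie below their DMSO point on the scale as deposited (not with centring on the median of each sample), and 10 closed starts stand in a row on 19p.

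Closed members stood next to each other in places. Of the 246 members, 235 lay in 9 clusters of at least 5, in which no gap between neighbours exceeded 1 Mb. The longest run of closed starts was on 19p between ZNF43 and ZNF728 (chr19:21804946-23003176), 10 members in a row of which 7 were fully closed: ZNF208, ZNF257, ZNF729, ZNF98, ZNF492, ZNF99 and ZNF728. It was flanked by 13 members with a start peak from ZNF486 to ZNF100 and by 5 from ZNF730 to ZNF681. On 19q the 3 neighbours ZNF667, ZNF471 and ZNF470 were all fully closed. The longest runs with a start peak held 14 members, from ZNF653 to ZNF20 on 19p and from ZNF45 to ZNF235 on 19q.

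The clusters differed in the share of open starts. All 5 members of the ZNF554 to ZNF77 cluster were open, as were 22 of 25 (88.0%) from ZNF653 to ZNF791 and 19 of 24 (79.2%) from ZNF575 to ZNF296. The share was 59.5% of 37 members from ZNF101 to ZNF254, 59.0% of 39 from ZNF175 to ZNF331 and 59.3% of 59 from ZNF628 to ZNF446. The last of these held 12 of the 27 fully closed members, and the ZNF101 to ZNF254 cluster held 8. The ZNF565 to ZNF573 cluster had 10 closed starts among 26 members but no fully closed gene.

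**Figure D2:**
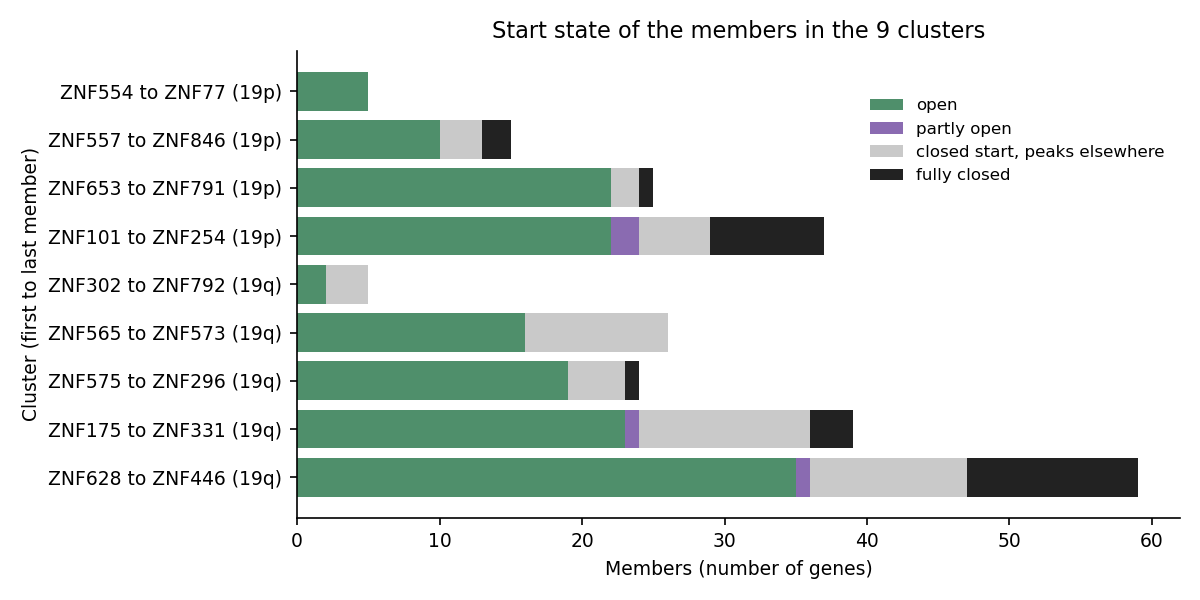
Number of members in each start state in the 9 clusters of at least 5 members, in chromosome order and named by their first and last member. The first cluster is open throughout, and the last holds 12 of the 27 fully closed members.

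The arms differed in the share of open starts and in their value. On 19p 60 of 83 members were open in all 6 samples (72.3%) and on 19q 101 of 163 (62.0%). The share with a start peak was 10.2 ± 1.05 points lower on 19q (SD, n = 6; lower in 6 of 6 samples; exact sign-flip permutation test, p = 0.03125), and 4.7 points lower when every RefSeq start was counted. The mean start value was 165, 196 and 177 on 19p in the DMSO samples and 146, 159 and 139 in the APH samples, against 147, 172 and 160 and then 125, 133 and 126 on 19q. Within each sample the value was thus lower on 19q, by 0.19 ± 0.05 on the log2 scale (SD, n = 6; exact sign-flip permutation test, p = 0.03125). The difference between the arms did not change detectably with APH, in value (log2 change -0.04, exact permutation test, p = 0.4) or in share (0.621 points, p = 0.5, exact permutation test).

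Open starts spanned a 17.0-fold range. Averaged over the 6 samples, values ran from 27.9 for ZNF93 to 474 for ZNF584, with a median of 147 over the 161 open members, 176 on 19p and 140 on 19q. The start peak closest to the 5′ end had a median width of 724 bp and lay within 250 bp of that end in 143 of 161 members (88.8%). Highest on 19p was ZNF556, with 335, 358 and 323 in DMSO and 327, 328 and 262 in APH. ZNF627 followed with 293, 406 and 372 in DMSO and 275, 274 and 294 in APH. The other two of the 4 highest on 19p were ZNF136 (271 to 369) and ZNF443 (231 to 378). These 4 overlapped widely, so their order is not separated by the spread between samples.

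On 19q ZNF584 led with 421, 609 and 536 in DMSO and 380, 485 and 413 in APH. It was followed by ZNF226, with 328, 501 and 341 in DMSO and 350, 417 and 308 in APH, by ZNF547 (293 to 490) and by ZNF548 (226 to 497). The start of ZNF547 is shared with TRAPPC2B, so this value cannot be assigned to either gene. In all 8 of these members the highest value was that of DMSO replicate 2. Mean member start values over samples were lower than those of other genes of chromosome 19, by 0.11 ± 0.02 (log2, SD, n = 6), and lower than those of ZNF genes of other chromosomes, by 0.10 ± 0.05, each in 6 of 6 samples (exact sign-flip permutation test, p = 0.03125). The second difference was -0.03 (p = 0.188, exact sign-flip permutation test) when every RefSeq start was counted. Against all other protein-coding genes the difference was 0.05 ± 0.06 (p = 0.125, exact sign-flip permutation test), not beyond the spread between samples, and 0.129 (p = 0.03125, exact sign-flip permutation test) when every RefSeq start was counted.

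Members were also listed by what is known of them, with earlier results of these data in view, and counts in the lists are descriptions. Of 10 members known to bind or repress transposable elements, 8 were open (80.0%, against 65.4% of all members). ZNF91, which represses SVA elements, had 213, 324 and 192 in DMSO and 288, 262 and 183 in APH. ZNF93, which represses older L1 elements, was the lowest open start, with 26.4, 25.4 and 33.7 in DMSO and 21.5, 32.9 and 27.6 in APH. ZNF91 and ZNF93 thus differed widely in level, and in each the samples of the 2 conditions overlapped. The list also held ZNF611 (168 to 239), ZNF808 (152 to 228), ZNF417 (154 to 269), ZNF587 (112 to 180), ZNF765 (118 to 147) and ZNF649 (45.4 to 57.8), while ZNF534 and ZNF600 had body peaks but no start peak.

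Of 9 members whose promoters are known to be methylated in tumours, 1 was open (11.1%, against 65.4% of all members). It was ZNF382, with 67.9, 78.2 and 63.9 in DMSO and 61.0, 71.5 and 71.0 in APH, and its start is shared with another gene. ZNF154, ZNF471, ZNF667, ZNF671 and ZNF677 were fully closed in all 6 samples. ZNF582 and ZNF132 had no start peak but peaks elsewhere, and ZNF331 was closed at its 5′ end but open at another RefSeq start (59.5 to 82.2). DNA methylation was not measured in these samples.

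Of 4 members known from chromatin or tumour biology, ZNF274 and ZNF350 were open, ZNF568 had no start peak and ZNF304 was fully closed. ZNF274, which recruits H3 lysine 9 methylation to zinc finger genes, had 57.5, 96.2 and 69.7 in DMSO and 49.6, 51.9 and 36.6 in APH, so that all APH samples lay below all DMSO samples. Its log2 change of -0.67 ± 0.21 (SE) was the lowest of any open member and did not pass (limma, adjusted p = 0.0605). ZNF350, a partner of BRCA1, had 109, 112 and 111 in DMSO and 84.0, 102 and 88.9 in APH. A further 19 members had been listed, from general knowledge, as lying outside the clusters of KRAB genes, but 14 of them lay in the clusters of at least 5 members used here. Of the 19, 14 were open (73.7%). They ranged from ZNF507, with 66.7, 33.6 and 64.4 in DMSO and 32.9, 23.7 and 51.6 in APH, to ZNF414, with 321, 312 and 313 and then 260, 259 and 274. The 5 closed ones were ZNF358, ZNF444 and ZNF574, each open at another RefSeq start, and ZNF536 and ZNF541.

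Body peaks of members were lower in value than start peaks. Between 148 and 203 peaks per sample lay in bodies and between 184 and 203 at starts. At least 1 body peak in any sample was found in 85 of the 161 open members and in 3 of the 5 partly open ones, and by definition in all 53 members with a closed start that were not fully closed. With peaks within 1 kb of any other RefSeq start left out, 79 of the open and 43 of the closed members had one. The mean start value exceeded the mean body value by 0.88 ± 0.07 (log2, SD, n = 6), in 6 of 6 samples (exact sign-flip permutation test, p = 0.03125). The mean body value was 83.0, 91.2 and 88.9 in DMSO and 74.5, 76.5 and 76.2 in APH, and exceeded that of other genes by 0.34 ± 0.05 (log2) in 6 of 6 samples (p = 0.03125, exact sign-flip permutation test).

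That excess turned around when other starts were left out of the bodies, a setting chosen after the data were seen. With every RefSeq start of any protein-coding gene and 1 kb to either side removed from both sets, member bodies had 56.0, 64.3 and 60.5 in DMSO and 56.1, 56.7 and 51.7 in APH, 0.08 ± 0.03 (log2) below other genes and lower in 6 of 6 samples (p = 0.03125, exact sign-flip permutation test). The start excess over bodies was then 1.42 ± 0.10. Position was counted in another setting, with only peaks at the 5′ end of a protein-coding gene left out, so that other RefSeq starts stayed in. With each gene divided into 5 equal parts, the first held 2.39 ± 1.04 points more of these body peaks than in other genes of chromosome 19 (higher in 6 of 6 samples, p = 0.03125 and 0.0781 adjusted over the 5 parts, exact sign-flip permutation test), and the middle part 2.17 ± 1.24 points fewer (lower in 6 of 6 samples, with the same p-values).

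The members with most body peaks were ZNF536, ZNF665 and ZNF69. ZNF536, a zinc finger gene of the nervous system that spans 0.488 Mb, had 7, 8 and 4 body peaks in DMSO and 6, 10 and 3 in APH, spread over 12 merged regions of which 2 had a peak in all 6 samples. The stronger of these, at chr19:30682879-30683309, had 60.5, 65.9 and 53.8 in DMSO and 48.2, 42.5 and 43.1 in APH (log2 change -0.42, limma, adjusted p = 0.414). ZNF665 had 4, 4 and 3 in DMSO and 6, 6 and 4 in APH, with a region 10.9 kb from its closed start at 71.6, 106 and 99.4 in DMSO and 85.2, 107 and 85.1 in APH. Neither of these regions of ZNF536 and ZNF665 lay within 1 kb of another RefSeq start. ZNF69 was open, and the genes ZNF700 and ZNF763 lie within its annotated span, so that 9 of its 27 body peaks over the 6 samples lay more than 1 kb from the start of another gene. Its region 77.2 kb from the start, with 208, 251 and 180 in DMSO and 185, 201 and 170 in APH, is the start of ZNF763, and the one 37.1 kb away, with 172, 181 and 185 and then 189, 194 and 156, is that of ZNF700. The 1 body region of ZNF69 with a peak in all 6 samples that lay over 1 kb from any other start had 92.0, 140 and 79.7 in DMSO and 86.6, 81.1 and 73.9 in APH, 1.28 kb from the nearest start.

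Promoter sequences were available for 216 members and 15843 protein-coding genes in all, each 300 bases long with 250 before the start. Of the 216, 179 begin at the 5′ end of the gene, and the others at the nearest listed start. Motifs were searched on both strands, and a match describes the letters and not a bound factor. The CCAAT box stood in 82.2% of 19p promoters, 39.9% of 19q promoters and 36.4% of all. The GC box stood in 82.2% of 19p, 59.4% of 19q and 58.3% of all. The ETS motif was found in 38.4% of 19p and 48.3% of 19q promoters, against 14.2% of all. The motif of NRF1 (GCGC, any base, then TGCGC) stood in 4.11% of 19p and 16.8% of 19q promoters, against 8.59% of all. TATAAA stood in 2.31% of members against 9.75% of all. CpG numbers per 300 bases had a median of 15 on 19p and 22 on 19q and over all promoters.

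The words chosen for 1 arm did not stand in promoters of the other. TCCAATCAGG stood in 43 of 73 promoters on 19p, in 0 of 143 on 19q and in 35 of 15627 other promoters, a median of 58.5 bases before the start. TCTTCTGTCACTCA stood in 17 promoters on 19p and in no other promoter. AACTACATTACCCA stood in 11 promoters of 19q, none of 19p and 1 other. Each word was chosen for the largest share of its holders on its arm, among words held by a set least number of promoters there. Rarity elsewhere thus follows from the choice, and these counts are descriptions. Open and closed members both held the words. Of the 43 members with TCCAATCAGG, 34 were open, 2 partly open, 3 closed at the start only and 4 fully closed. On 19p it stood in 61.8% of 55 open and 43.8% of 16 closed promoters, and TCTTCTGTCACTCA in 23.6% and 25.0%. Of the 11 with AACTACATTACCCA, 4 were open, 1 partly open, 4 closed at the start only and 2 fully closed. The CCAAT box on 19p stood in 83.6% of open and 75.0% of closed promoters, and the ETS motif in 34.5% and 50.0%.

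**Figure D3:**
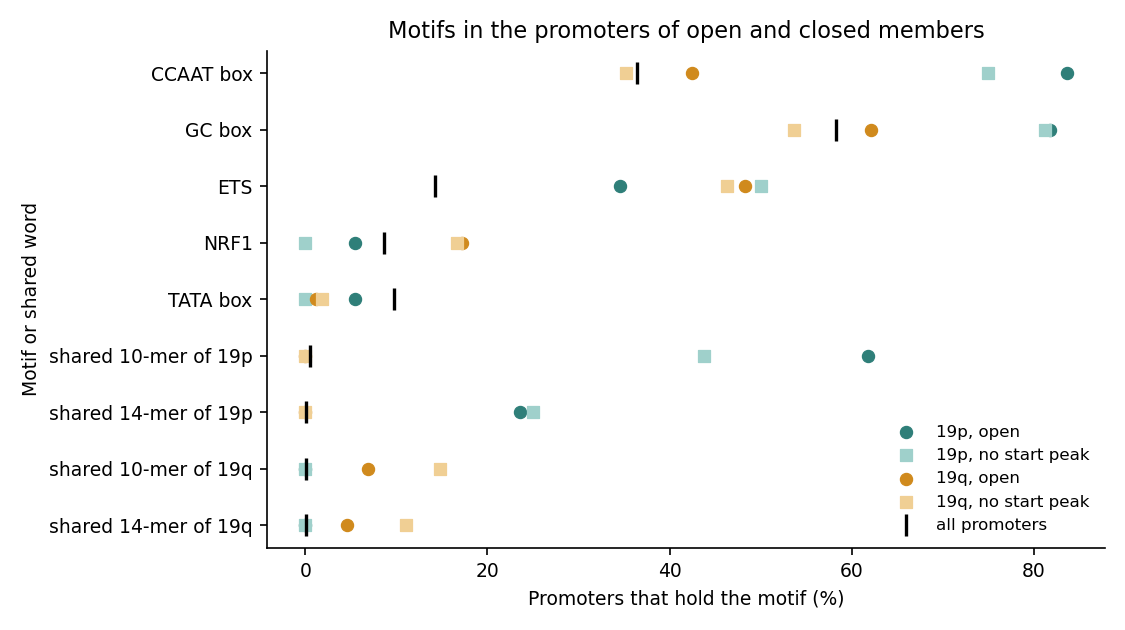
Share of promoters (%) that hold each motif or shared word, for open members and members with no start peak on each arm and for all 15843 promoters. The CCAAT box and GC box are most frequent on 19p, and the shared words of an arm are absent from the other arm in open and closed members.

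In every APH sample the mean start value of members, as deposited, was below that of every DMSO sample, and start peaks were more numerous, in comparisons of 3 against 3 samples that cannot pass 0.05. Members had 342, 376 and 332 peaks in DMSO and 375, 406 and 348 in APH (exact permutation test, two-sided, p = 0.3, where 3 against 3 samples cannot go below 0.1). Start peaks numbered 188, 189 and 184 in DMSO and 197, 203 and 199 in APH, so that all APH samples lay above all DMSO samples (p = 0.1, exact permutation test). Body peaks numbered 154, 187 and 148 in DMSO and 178, 203 and 149 in APH (p = 0.6, exact permutation test). The number of members with a start peak was 162, 162 and 161 in DMSO and 163, 164 and 164 in APH (p = 0.1, exact permutation test). On average there were 12.7 more start peaks and 2.0 more members with one in APH. With starts within 500 bp these were 3.33 and 0.667, with starts within 2 kb 12.7 and 0.333, with peak lists cut to the same length 11.3 and 0.667, and with peaks at or above the median value only -0.333 and -3.0. Of all peaks of a sample, those of members were 0.507% ± 0.0174 in DMSO and 0.482% ± 0.0133 in APH (SD, n = 3; p = 0.2, exact permutation test). With the same number of peaks kept in each sample, the strongest, body peaks were 10.0 fewer in APH (p = 0.1, exact permutation test).

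The mean start value of members was 153, 181 and 166 in DMSO and 132, 143 and 130 in APH, a mean of 167 ± 13.7 against 135 ± 6.48 (SD, n = 3). All APH samples lay below all DMSO samples (p = 0.1, exact permutation test). Start peaks of other genes went from 159 ± 7.58 to 131 ± 4.68, and the log2 ratio of members to other genes was 0.07 ± 0.06 in DMSO and 0.04 ± 0.07 in APH (p = 0.6, exact permutation test). The mean body value was 87.7 ± 4.21 in DMSO and 75.7 ± 1.09 in APH, with no overlap between the conditions (p = 0.1, exact permutation test). With every RefSeq start left out it was 60.3 ± 4.17 in DMSO and 54.8 ± 2.74 in APH, within the spread between samples (p = 0.3, exact permutation test).

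**Figure D4:**
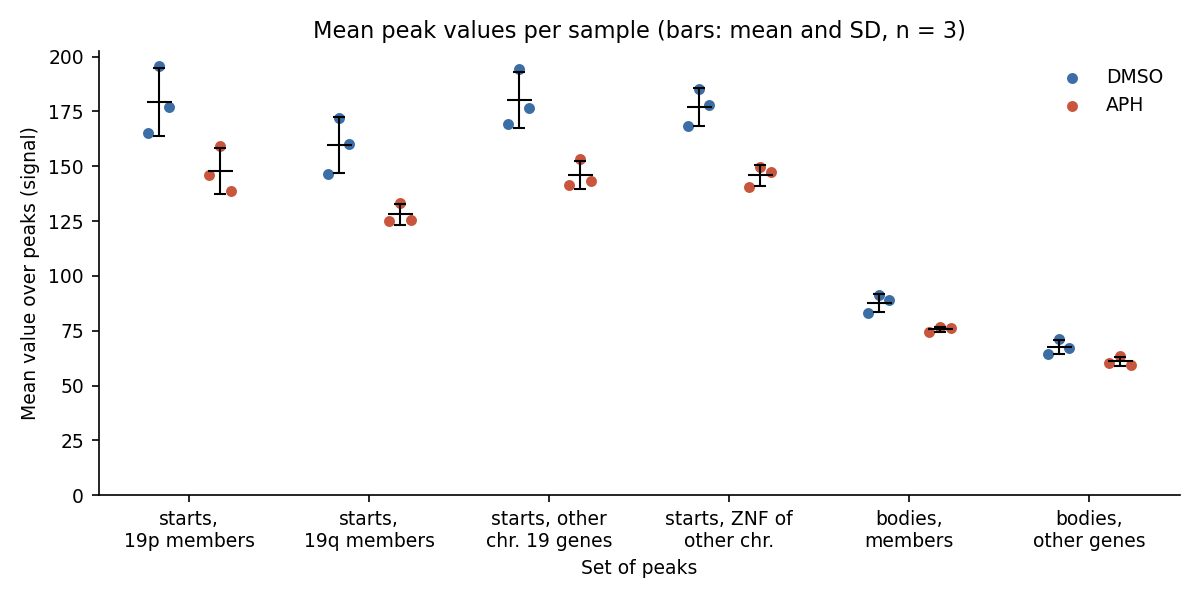
Mean peak value (signal) of each sample for starts and bodies of members and of other genes, with the mean and SD of 3 samples. On the scale as deposited, the APH samples of each set of starts lie below the DMSO samples, 19q starts lie below 19p starts, and member bodies lie above bodies of other genes when other RefSeq starts are not left out. Only member bodies keep the 5′ ends of genes that are not members.

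Gene by gene, the change of member starts was that of gene starts in general. The 161 open members were tested among the 10813 genes with a start peak in all 6 samples, with limma on log2(value + 1), samples taken as unpaired, and Benjamini-Hochberg adjustment at 0.05. Their median log2 change was -0.27, as it was over all 10813 starts, and 151 of 161 (93.8%) were below 0, against 92.9% of all starts. After adjustment 2 members were called lower in APH (1.24%), against 2.41% of all starts tested, and 0 were called higher, against 0.0%. At an unadjusted p below 0.05, 67 members were lower (41.6%, against 40.4% of all starts) and 0 higher (against 0.462%). All APH samples lay below all DMSO samples in 72 members (44.7%, against 42.2% of all starts), and in none did they lie above (against 0.694%). The direction rested on the scale as deposited. With values centred on the median of each sample 77 of 161 were below 0, with 3 lower (1.86%, against 2.64% of all starts) and 5 higher (3.11%, against 5.26%) at an unadjusted p below 0.05, and with quantile normalization 80 were below 0, with 5 lower (3.11%, against 3.74%) and 8 higher (4.97%, against 4.79%). On 19p the median change was -0.26 with 26 of 60 separated, and on 19q -0.28 with 46 of 101.

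The 2 called members belong to different arms. ZNF766 (chr19:52269587-52296046, plus strand) had 188, 232 and 212 in DMSO and 146, 143 and 139 in APH. Its log2 change was -0.55 ± 0.11 (SE; limma, adjusted p = 0.0485). ZNF554 (chr19:2819868-2836735, plus strand) had 115, 145 and 118 in DMSO and 79.5, 86.0 and 82.5 in APH. Its log2 change was -0.59 ± 0.13 (limma, adjusted p = 0.0485). In both the 3 APH values lay close together and below every DMSO value. Both calls were lost when values were centred on the median of each sample, with log2 changes of -0.28 and -0.32 (limma, adjusted p = 0.558 and 0.567), and in each fit without DMSO replicate 1, 2 or 3 or without APH replicate 1 or 2, in none of which any member was called. The log2 changes without 1 sample stayed between -0.63 and -0.48 for ZNF766 and between -0.66 and -0.49 for ZNF554. Without APH replicate 3, 25 members were called lower (15.5%, against 18.9% of all starts).

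The next 3 members by p among those whose samples did not overlap missed the threshold. ZNF845 had 203, 205 and 197 in DMSO and 122, 164 and 135 in APH (log2 change -0.53 ± 0.13, SE; limma, adjusted p = 0.051). ZNF576 had 127, 139 and 114 in DMSO and 78.4, 78.2 and 97.4 in APH (limma, adjusted p = 0.0512), at a start shared with IRGQ. ZNF473 had 187, 223 and 197 in DMSO and 147, 149 and 148 in APH (limma, adjusted p = 0.0512), at a start shared with VRK3. The 3 adjusted p-values lay just above the threshold that ZNF766 and ZNF554 passed. The 10 members with a change above 0 reached at most 0.11 (ZNF761), with a smallest unadjusted p of 0.469 in limma. Of the members listed by known role, none was called, and 7 of 8 open transposon repressors, 1 of 1 open methylated promoter, 2 of 2 and 13 of 14 in the other lists had a change below 0.

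**Figure D5:**
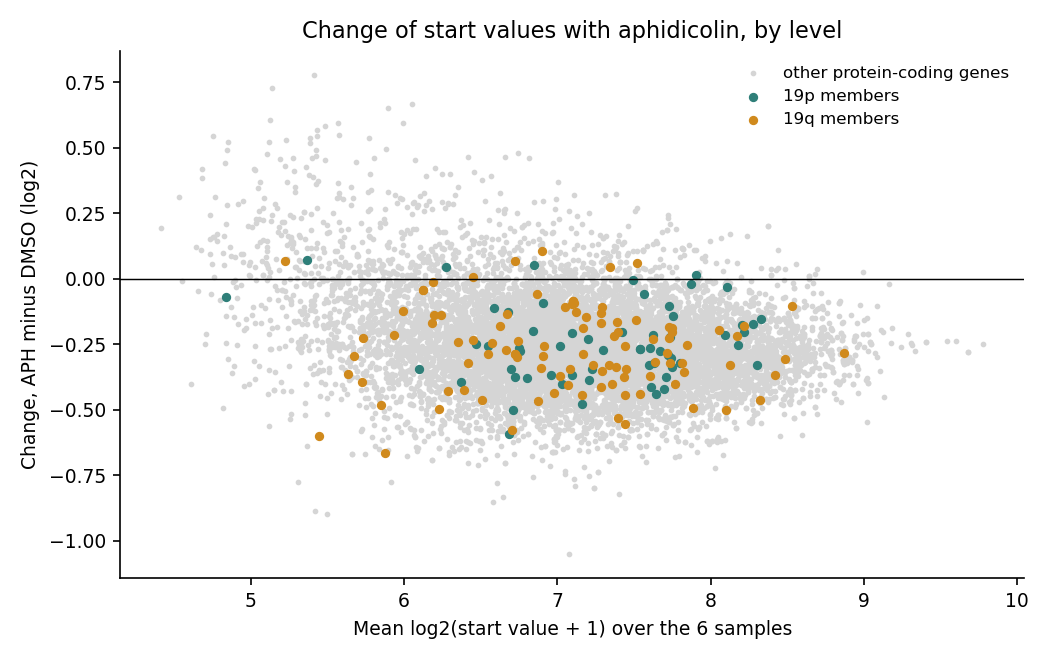
Change from DMSO to APH (log2) against mean log2(value + 1) for each of the 10813 gene starts with a peak in all 6 samples, with members coloured by arm. The members lie within the cloud of other genes, with a median of -0.27 in both.

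No merged region of a member was called in the fit that took the samples as unpaired. Overlapping peaks of the 6 samples (1 bp or more) were joined into regions, and 441 of these belonged to members, 286 of them with a peak in all 6 samples (64.9%, against 48.8% of all 102784 regions). In limma, 0 of the 286 passed after adjustment, against 0.0% of the 50150 regions tested, and at an unadjusted p below 0.05, 68 were lower (23.8%, against 10.1%) and 0 higher (against 2.46%). All APH samples lay below all DMSO samples in 99 (34.6%, against 14.4%) and above in 1 (against 4.21%). The 176 at starts had a median log2 change of -0.26 and the 110 in bodies one of -0.11, while all regions had -0.06. Of the lower regions at an unadjusted p below 0.05, 56 were at starts (31.8%) and 12 in bodies (10.9%). All APH samples lay below all DMSO samples in 78 at starts (44.3%) and 21 in bodies (19.1%). A peak in all 6 samples was found in 87.1% of member regions at starts and 46.0% of those in bodies. All regions were not split into starts and bodies, so these contrasts mix the 2 kinds. With quantile normalization the median of member regions was -0.08 and that of all regions -0.01, with 23 member regions lower (8.04%, against 4.6%) and 1 higher (0.35%, against 5.91%) at an unadjusted p below 0.05.

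Few member regions belonged to 1 condition. A peak only in APH samples was found in 46 of 441 (10.4%, against 18.5% of all regions) and only in DMSO samples in 23 (5.22%, against 7.03%). These shares were 4.46% and 1.49% for member regions at starts and 15.5% and 8.37% for those in bodies. All 3 APH and no DMSO samples had a peak in 3 of the 441 regions, against 1136 of all 102784. They were the start of ZNF114 described above, a body region of ZNF665 at chr19:53183141-53183466 with 48.2, 38.4 and 34.3, and a body region of ZNF317 at chr19:9164222-9164478 with 27.6, 23.2 and 22.1. All 3 DMSO and no APH samples had a peak in 3 others of the 441, against 189 of all 102784. In ZNF546 at chr19:39998632-39998903 the values were 71.6, 71.6 and 68.4. In ZNF420 at chr19:37114059-37114354 they were 23.6, 26.1 and 21.0, and in ZNF708 at chr19:21322056-21322412 they were 22.3, 21.1 and 20.9. The regions of ZNF546, ZNF114 and ZNF665 were at 34.3 or more in each sample with a peak, and the other 3 at 27.6 or less. None of the 6 has a value in the other condition, so the change was not tested.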

How the data were processed

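Peak lists of 6 ATAC-seq samples of RKO cells were used, 3 treated with DMSO and 3 with aphidicolin. The authors aligned reads to hg38 with BWA 0.7.12 (versions and build from the submitters' processing notes), removed duplicates, kept uniquely mapped pairs, extended alignments to 200 bp, counted them in 32-nt bins and called peaks in each sample with MACS2 2.1.0 without a control, leaving out blacklisted regions. The methods name no shift of reads to the transposase cutting site. The deposited value of a peak is signal, the mean coverage over it, and library sizes are not given in the sources used here.

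Genes came from RefSeq (GRCh38.p14). Strand was taken from RefSeq promoters for 216 members and from GENCODE by symbol for 30, and 19675 of 20037 genes had a known strand. The value of a start or region is the length-weighted mean of its peaks. Regions and starts covered in all 6 samples were fitted over the whole table with limma 3.58.1 (R 4.3.3) on log2(value + 1) with an intensity trend. Single values were compared by two-sided exact permutation over samples, using Python 3.11.15 with numpy 2.4.6, pandas 2.3.3 and matplotlib 3.10.9. In simulated data, 23.3%, 85.7% and 98.6% of starts changed by 0.5, 1 and 2 (log2) were recovered among 10813, with 5 false calls, and 1.67%, 25.7% and 94.3% of regions among 50150, with 2.

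The members, lists, tests and words were chosen with earlier results of these data known. Named were the 4 members of highest start value on each arm, the 5 of smallest p in each direction whose samples did not overlap (none was higher), the 3 with most body peaks, 4 lists from general knowledge and members with a start peak in 1 or 5 samples (none had 5). ZNF114, ZNF546 and other members named for single regions, runs or promoters were chosen after their values were seen. Alternatives covered pseudocounts, scaling, the start window, peak thresholds, symbols, a replicate block and each sample left out. Clusters built with a gap of 500 kb numbered 10, with 232 members. Protein sequences were not used here, so zinc finger and KRAB motifs were not counted. Some of the marker genes used to check the cell line are not reported here.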

Additional observations from a re-analysis of the deposited data

How the results depend on the processing

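Peak lists hold no depth, so the limits are the unknown library size, 3 samples per condition and the dependence of calls on scaling. The share of open starts, its difference between arms and from other genes, and the excess of start over body values kept their direction with other start windows, symbols, peak thresholds and RefSeq starts, where these were run, and without each sample in turn. They then missed the threshold only without a sample, since 5 samples cannot go below 0.0625 in the sign-flip test. Without each sample in turn, the 19q to 19p value ran from -0.20 to -0.17 (log2) and the share from -10.6 to -9.95 points. The start-to-body value ran from 0.858 to 0.900 and the member-to-other body value from 0.330 to 0.357. The share of members with a start peak ran from 10.6 to 11.1 points above other genes of chromosome 19 and from -10.2 to -9.88 points against ZNF genes elsewhere. Their start values ran from -0.12 to -0.11 and from -0.113 to -0.0856 (log2) against the same sets.

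The 2 calls among member starts rested on the setting. Members called lower numbered 0 with centring on the median of each sample, with quantile normalization, with the highest start peak, with starts within 500 bp and with a peak in at least 3 samples, where 1 (ZNF114) was called higher (0.613%, against 0.0527% of all starts). The DMSO values of ZNF114 were filled with the lowest value of each sample, so this call is no test of a change. Members called lower numbered 8 with every RefSeq start (4.42%, against 3.89% of all starts), 14 with starts within 2 kb (8.38%, against 6.58%) and between 0 and 25 without each sample in turn. At an unadjusted p below 0.05 the lower members ranged from 44 (27.3%, against 21.2% of all starts) without APH replicate 1 to 68 (42.2%, against 39.8%) without DMSO replicate 1. With centring, 3 were lower (1.86%, against 2.64%) and 5 higher (3.11%, against 5.26%) and the median change was 0.00581. With quantile normalization, 5 were lower (3.11%, against 3.74%) and 8 higher (4.97%, against 4.79%) and the median change was 0.00385. The direction of member starts as deposited is thus tied to the scale of each sample, as it is for all starts, whose median was 0.00457 with centring and -0.00855 with quantile normalization. Single members of high level turned with them. With centring and with quantile normalization the change was 0.120 and 0.118 for ZNF556, 0.0985 and 0.104 for ZNF136, 0.0691 and 0.0765 for ZNF443 and 0.168 and 0.172 for ZNF226, and ZNF226 ran from -0.220 to 0.0896 without each sample. With a peak in at least 3 samples, 1 start was higher at an unadjusted p below 0.05 (0.613%, against 0.623%).

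Among regions of members, a peak in at least 3 samples gave 1 lower (ZNF546; 0.284%, against 0.0632% of all regions) and 1 higher call (ZNF114; 0.284%, against 0.214%), with 7 higher at an unadjusted p below 0.05 (1.99%, against 4.26%). Each of the regions called had peaks in 1 condition only and the other condition was filled with the lowest value of each sample, so these calls are no test of a change. The unadjusted higher regions numbered 2 with centring (0.699%, against 6.16%) and 1 with quantile normalization (0.35%, against 5.91%). Without each sample they numbered 0 to 3, the 3 without APH replicate 3 (1.05%, against 5.71%). The unadjusted lower ones numbered 75 with centring (26.2%, against 9.82%), 23 with quantile normalization (8.04%, against 4.6%), and from 27 without APH replicate 1 (9.44%, against 4.12%) to 72 without DMSO replicate 1 (25.2%, against 9.67%).

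The replicate numbers are shared by the conditions, and samples of the same number correlated in their deviations from the group mean by -0.09, 0.59 and 0.60 over starts and -0.01, 0.48 and 0.52 over regions. With 1 of 3 pairs at no positive correlation, the numbers were not taken to pair the samples. A replicate block called 87 members lower (54.0%, against 52.6% of all starts) and, among regions, 77 lower (26.9%, against 11.1% of all regions) and 1 higher (0.35%, against 2.04%), with 133 lower (46.5%, against 21.1%) and 2 higher (0.699%, against 7.08%) at an unadjusted p below 0.05.

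Small differences between conditions, none past the threshold, changed sign. With peaks at or above the median value only, start peaks were -0.333 in all and member peaks -0.333 on 19p, members with a start peak -3.0 in all and on 19q, the log2 start value relative to other genes 0.0108 and the share of 19q against 19p -1.84 points. With an equal number of peaks, body peaks were -10.0, the share of member peaks 0.00207 points, members with a start peak on 19p -0.333 and the value relative to other genes of chromosome 19 -0.000137 (log2). That value was -0.00438 with symbols that end in the number, and -0.0155 to 0.0118 without each sample. The share of 19q against 19p was -0.197 points with starts within 500 bp, -0.402 with starts within 2 kb and -0.0875 to 1.13 without each sample. The start value relative to all other genes ran from -0.0535 to 0.0140 without each sample. The settings with every RefSeq start were added after the data were seen. With every RefSeq start, the start value of members was -0.0259 against ZNF genes elsewhere and 0.129 against all other genes (log2). With every RefSeq start left out of the bodies, the body value of members was -0.0778 against other genes. The cause of the other changes was not tested.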
